A study of Rattus norvegicus with 9 samples.

Results

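Chronic constriction injury (CCI) of the rat sciatic nerve was followed by lower chromatin accessibility at 2103 regions of the dorsal root ganglion (DRG), or 1.13% of the 186719 accessible regions measured. Regions were chosen by their normalized reads in all 5 rats: both CCI values had to be under the lowest of the 3 naive values, the log2 ratio of the CCI mean to the naive mean had to be -0.8 or less, and the naive mean had to be at least 20 normalized reads. This minimum was met by 40640 regions, and the losing regions made up 5.17% of them. The other 38537 regions at or above the minimum are called the other regions below. Of these, 841 (2.07% of the 40640) had the reverse order and a ratio past the opposite limit, and are called gaining regions. The minimum stayed on the naive mean, which is the higher group in losing regions and the lower group in gaining regions. Gains from a lower naive mean are thus left out, and comparisons of losing with gaining regions are shaped by this minimum. The lower CCI values of the losing regions describe how they were chosen and are no finding. Of the losing regions, 43.6% overlapped H3K4me1, against 71.3% of the other regions, and their median length was 476 bp, against 643 bp. Chromosomes 10 and 12 held 9 and 3 of them, and 26.5% lay within 50 kb of another losing region.

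Accessibility was measured by ATAC-seq in 2 CCI rats and 3 naive rats, with 1 adult female Sprague Dawley rat per library. A passage of the study's text gives these group sizes the other way round, and another gives 3 replicates in each group. The sample labels were followed here. ChIP-seq of H3K4me1 used 2 samples of each group, with DRGs of 3 rats pooled in each, and only a merged list of H3K4me1 positions with no value per sample was used here. CCI rats had loose ligatures tied around the sciatic nerve and were dissected 14 days later, whereas naive rats had no procedure, so effects of surgery and of nerve constriction cannot be told apart. Ipsilateral lumbar DRGs L4 to L6 were taken from both groups, and the age of the rats was given as 8 to 10 weeks in one place and 12 to 16 weeks in another. Whole ganglia hold sensory neurons, satellite glia, Schwann cells, immune cells and vessels, so fewer nuclei of a cell type and lower accessibility within each nucleus cannot be told apart. Among regions with a gene name, those nearest to the neuronal tubulin gene *Tubb3* and the myelin gene *Cnp* had naive means of up to 179 and 160 normalized reads. A naive mean of 100 or more was reached by 9044 regions, so these values are no check on the labelled tissue.

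Cis-regulatory elements (CREs) are stretches of DNA, such as promoters and enhancers, that transcription factors bind when nucleosomes leave them exposed. The Tn5 transposase cuts exposed DNA, so reads over a region count how often it was open in the nuclei of the sample. Mono-methylation of lysine 4 of histone H3 (H3K4me1) marks enhancers and the flanks of promoters, and an open region without it can be another kind of element, such as an insulator, or a site that is rarely used.

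Of 7 candidate enhancers that were amplified from rat genomic DNA, cloned into reporter plasmids and lettered A to G, 3 overlapped losing regions, and their cloning primers are shown because they fix the ends of the cloned DNA. Capitals mark the part of each primer that anneals to the rat genome, and the lower-case tail carries the restriction site. Construct B is nearest to *Cst3*, the cysteine protease inhibitor cystatin C, construct C to *Tll1*, a tolloid-like metalloprotease, and construct D to *Slc1a3*, a glutamate transporter of glia.
Construct B forward: atcaacgcgtCTGGGAGAAGGGAACAGCC
Construct B reverse: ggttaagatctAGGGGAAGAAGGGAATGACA
Construct C forward: atcaacgcgtACCCCTCAGCTCTTCTTCAC
Construct C reverse: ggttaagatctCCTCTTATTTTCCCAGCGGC
Construct D forward: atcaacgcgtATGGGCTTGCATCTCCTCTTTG
Construct D reverse: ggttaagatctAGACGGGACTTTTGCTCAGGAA

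The *Cst3* region lies on chromosome 3 of rn6 from 143254480 to 143255452 and carried 59.4 and 71.0 normalized reads in CCI rats 1 and 2, against 154, 140 and 106 in naive rats 1 to 3. The *Tll1* region lies on chromosome 16 from 27198104 to 27198721 and carried 32.0 and 22.4 normalized reads after CCI, against 63.4, 89 and 59.1 in naive rats. The *Slc1a3* region lies on chromosome 2 from 57941334 to 57941850 and carried 16.02 and 12.8 normalized reads after CCI, against 46.4, 40 and 34.8 in naive rats. In group means, these were 65.2 ± 8.17 (SD, n = 2) against 133 ± 24.9 (SD, n = 3) at *Cst3*, 27.2 ± 6.80 against 70.5 ± 16.2 at *Tll1*, and 14.4 ± 2.26 against 40.4 ± 5.80 at *Slc1a3*. The log2 ratios were -1.03, -1.37 and -1.49, and all 3 regions overlapped H3K4me1. The study cloned regions that it had found changed, and it looked for these only within H3K4me1, so this overlap is no finding. With every library centred on its 1 Mb windows, the ratio at *Cst3* was -0.49 and that region no longer met the rule, while those at *Tll1* and *Slc1a3* did. Subtracting the median log2 ratio of the regions within 500 kb that were not losing gave -0.83 at *Cst3*, so these corrections differed. Construct A, on chromosome X, overlapped a region that missed the limit narrowly, with a log2 ratio of -0.79 and lower values in either CCI rat than in any naive rat. Constructs E, F and G overlapped regions with a higher mean after CCI.

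Sequencing depth set the precision of these values. Deposited values are reads per region divided by a size factor per library, and multiplying them back gave whole reads for 100% of values, within a tolerance of 0.006 normalized reads. The CCI libraries had 7692994 (rat 1) and 9304710 (rat 2) reads in regions, and the naive libraries 13248437, 4633807 and 6382154 (rats 1 to 3). Over the losing regions the median was 23 and 35 reads in the CCI rats and 99, 33 and 47 reads in the naive rats, so counting error was widest in CCI rat 1 and naive rat 2. No value is under 1 read, so a region with no read cannot be told from a region with 1. CCI rat 1 was at 1 read in 7 losing regions, and no other library was at 1 read in any of them.

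Median normalized reads over the losing regions were 15.4 and 16.02 in CCI rats 1 and 2, against 32.4, 33 and 30.9 in naive rats 1 to 3. The same medians over the other regions were 49.4 and 41.2 in the CCI rats and 42.2, 46 and 41.4 in the naive rats. Losing regions took 0.907% and 1.08% of all normalized reads in the CCI rats, and 2.20%, 2.09% and 2.18% in the naive rats. The median log2 ratio of the losing regions was -1.002, and 28 of them fell below -2. Of all 40640 regions at or above the naive minimum, 7573 (18.6%) had both CCI values under every naive value, and 5470 of these did not reach the ratio limit. A further 9168 regions met the ratio and the order but had a naive mean under 20. Over all 186719 regions, with no minimum, 20514 (11%) had both CCI values under every naive value. A minimum set on the naive mean favours this order, so the share of 18.6% is no measure of loss. The members nearest to the ratio limit had log2 ratios of -0.800855 to -0.800091, and the 5 regions nearest to it from outside had ratios of -0.799999 to -0.799465. Near the naive minimum, the closest members had naive means of 20 to 20.0033, and the closest regions outside it had 19.99 to 19.9967.

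Because every rat entered the choice, the rule was also applied to 4 rats at a time and the rat left out was then examined. The group it was compared with had still been chosen by the rule, and the other regions had failed that rule. Part of each difference below therefore follows from the choice, so these values are a description and no independent check. With CCI rat 1 left out, the rule chose 3749 regions and CCI rat 1 lay below all naive rats in 72.6% of them, against 18.9% of the other regions. With CCI rat 2 left out, CCI rat 2 lay below all naive rats in 80.3% of the regions chosen, against 37.6%. Naive rats 1, 2 and 3, when left out, lay above both CCI rats in 91.2%, 85.1% and 85.2% of the regions chosen, against 28.3%, 37.1% and 25.4%. The median log2 ratio that used the left-out rat alone for its group was -0.55 for CCI rat 1, -0.76 for CCI rat 2, and -0.87, -0.83 and -0.73 for the naive rats. The rats that had made the choice gave medians of -1.08 to -0.999. The ratios with a left-out rat were smaller in size, and part of them still follows from the choice of the other group.

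H3K4me1 was not used by the rule. Of the 2103 losing regions, 917 (43.6%) overlapped an H3K4me1 region by at least 1 bp and 1186 did not. The share was 71.3% among the other regions, 75.03% among gaining regions and 31.3% among all accessible regions, most of which have fewer reads. Losing regions with a naive mean of 20 to 30 overlapped H3K4me1 in 34.5% of cases, against 51.6% of the other regions at that level. At 30 to 50 the shares were 42.5% and 66.1%, at 50 to 100 they were 55.4% and 81.6%, and at 100 or more they were 77.9% and 94.6%. Gaining regions had shares of 64.1%, 82.2%, 95.8% and 100% at these 4 levels. The levels match naive reads only: the median CCI mean was 15.1 normalized reads in losing regions and 45.0 in the other regions. Overlap rose with naive reads in every set, and the part of the lower CCI signal in these gaps was not tested. By region length, the shares were 44.4%, 36.0%, 46.4% and 59.1% for losing regions of 150 to 300, 300 to 500, 500 to 800 and 800 bp or more, against 65.0%, 58.2%, 66.2% and 86.7% for the other regions.

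**Figure D1:**
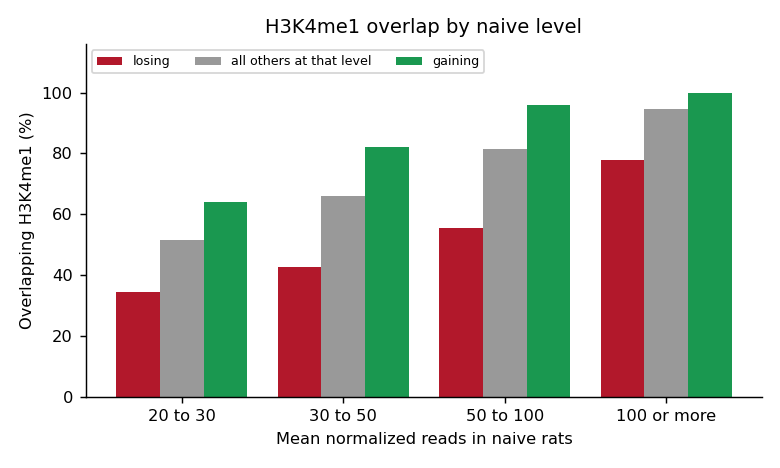
Share of regions (%) that overlap H3K4me1 (y axis) in 4 classes of mean normalized reads in naive rats (x axis), for losing regions (red), all other regions at that level, gaining regions included (grey), and gaining regions alone (green). The red bar is the lowest in every class, from 34.5% at 20 to 30 to 77.9% at 100 or more.

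The H3K4me1 regions met by losing regions were also compared by length. Their median length was 1096 bp, against 1995 bp for the other regions and 2635 bp for gaining regions. H3K4me1 stretches over 3 kb accounted for 14.2% of the overlapped ones, against 30.2% and 44.7%. The losing regions outside H3K4me1 lay at a median distance of 6078.5 bp from the nearest H3K4me1 region, against 3691 bp for the other regions and 2027 bp for gaining regions, and 433 of them (36.5%) lay more than 10 kb away. By size of loss, 50.3% of regions with a log2 ratio between -0.9 and -0.8 overlapped it, 34.0% of those between -2 and -1.5, and 7 of the 28 regions below -2 (25%). The median naive mean was 34.4 in the first of these classes and 24.9 in the last.

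Losing regions had a median length of 476 bp (quartiles 362 and 647 bp), against 643 bp for the other regions and 632 bp for gaining regions. Of these, 110 (5.23%) were longer than 1 kb, against 20.46% and 16.3%. Regions with more naive reads were longer in both sets. At naive means of 20 to 30 the medians were 391.5 bp and 440 bp, and at 100 or more they were 929 bp and 1095 bp. These classes match naive reads only, and the losing regions had fewer reads after CCI by the rule, so signal was not levelled. Per 100 bp of length, naive signal was 7.39 normalized reads in losing regions and 7.77 in the other regions. The 5 longest losing regions spanned 1511 to 1825 bp. They included a region nearest to *Spry2*, an inhibitor of receptor tyrosine kinase signalling, which did not meet the rule without CCI rat 2 (-0.76). Others were nearest to the vomeronasal receptor gene *Vom1r25*, whose close relatives make read assignment uncertain, and to *P2ry1*.

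The strongest naive signals among losing regions lay nearest to *LOC302022*, *Klhl25*, *Itpr1*, *Aspm*, *Atxn7l3b*, *Gpd2*, *P2ry1*, *Fat1* and *Akr1e2*, and in a region of chromosome 16 with no gene name. The *P2ry1* region, near the gene of a receptor for ADP, lies on chromosome 2 from 151099999 to 151101620. It carried 118 and 126 normalized reads in the CCI rats and 272, 279 and 207 in the naive rats, a group mean of 122 ± 5.48 (SD, n = 2) against 253 ± 39.8 (SD, n = 3). Its log2 ratio of -1.05 was the lowest of these 10 regions, and the others lay between -1.03 and -0.81. The *Itpr1* region covers the promoter of the gene for an inositol trisphosphate receptor, which releases calcium from the endoplasmic reticulum. It carried 171 and 130 normalized reads after CCI and 233, 271 and 311 in naive rats. At *Gpd2*, which encodes mitochondrial glycerol-3-phosphate dehydrogenase, the values were 153 and 123 against 252, 240 and 282. The naive mean of these 10 regions was between 1.76 and 2.07 times the CCI mean, near the limit of the rule. With every library centred on the median of its 1 Mb windows, *P2ry1* (-0.57), *Fat1* (-0.63) and *Akr1e2* (-0.64) no longer met the rule. Neither did *LOC302022* (-0.66), *Aspm* (-0.74), *Atxn7l3b* (-0.76), *Itpr1* (-0.79) or the chromosome 16 region (-0.799997), while *Klhl25* (-0.88) and *Gpd2* (-0.83) did. Without CCI rat 2, *Klhl25* (-0.75), *Gpd2* (-0.75), *LOC302022* (-0.73), *Itpr1* (-0.67), *Atxn7l3b* (-0.53), *Aspm* (-0.56) and *Fat1* (-0.72) did not meet it. The chromosome 16 region did not meet it without CCI rat 1 (-0.58), nor did *Klhl25* without naive rat 1 (-0.796). The same held for *Fat1* without naive rat 2 (-0.76) and *Itpr1* without naive rat 3 (-0.74). *P2ry1* and *Akr1e2* met it with each rat left out. Subtracting the median log2 ratio of the regions within 500 kb that were not losing gave -0.89 at *P2ry1*, unlike the centred value.

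**Figure D2:**
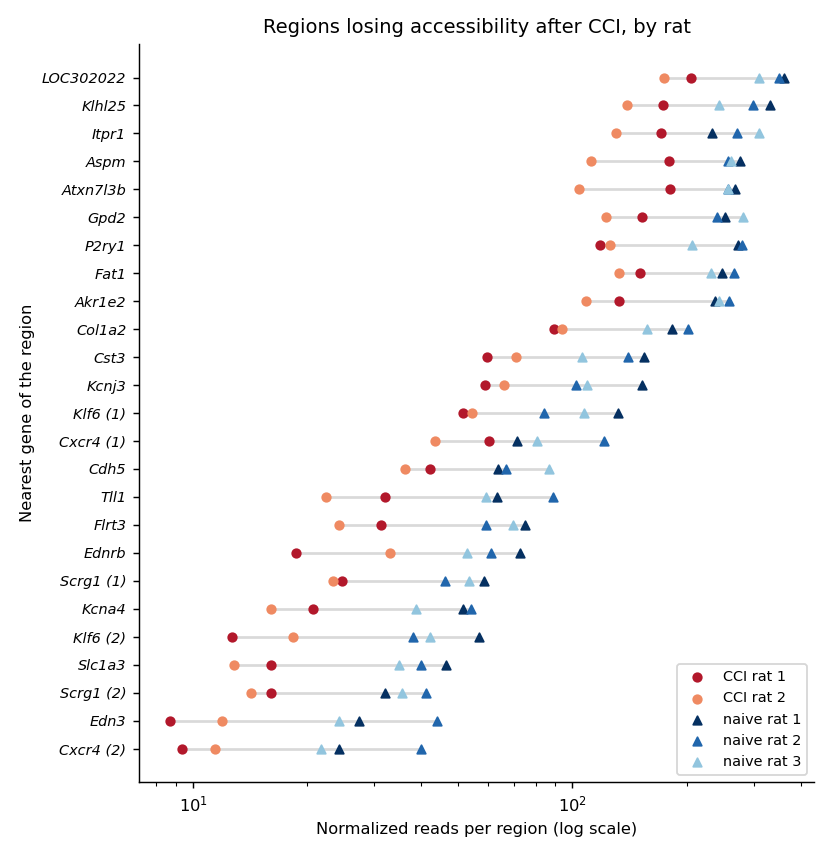
Normalized reads per region (x axis, log scale) in CCI rats (circles) and naive rats (triangles) for the losing regions with a gene name that have the highest naive means, lie nearest to a gene of the lists or lie in a cloned construct (y axis, nearest gene), ordered by naive mean, with a grey line over the range of the 5 rats. By the choice of regions all circles lie left of all triangles, and the narrowest gap among these regions is at the first *Cxcr4* region, between 60.1 in CCI rat 1 and 71.6 in naive rat 1.

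Gene names came from the nearest gene that the study gave for the same coordinates, which exist for the regions it lists as changed and not for others. One of these lists was read here in shortened form, so the counts of named regions and genes are lower bounds. They covered 478 losing regions (22.7%) and 413 genes, and 477 of these regions overlapped H3K4me1, so nearly all of the 1186 regions outside H3K4me1 have no gene name here. The study's methods looked for change only in accessible regions with H3K4me1, so this overlap follows from how the lists were made. Of 23148 protein-coding genes in RefSeq (assembly GRCr8, used for names only), 366 (1.58%) had a named losing region. The lists were chosen with earlier results known and hold 0 to 3 such genes each, so nothing is read from their counts. A gene in the lists below without a losing region may still have one that is unnamed. Satellite glia and Schwann cells ensheath sensory neurons, and 3 of their 28 listed genes had losing regions: *Edn3*, *Ednrb* and *Scrg1*. *Edn3* encodes the ligand endothelin 3 and *Ednrb* the receptor that binds it. The *Ednrb* region, on chromosome 15 from 87954047 to 87954866, carried 18.7 and 32.96 normalized reads after CCI, against 72.5, 61 and 52.6 in naive rats, a log2 ratio of -1.26. The *Edn3* region carried 8.68 and 11.9 against 27.5, 44 and 24.3, a log2 ratio of -1.63. *Scrg1*, a small secreted protein gene, had a pair of losing regions, in the same cluster, with log2 ratios of -1.13 and -1.26. Over all 7 named regions of the glial list, losing or not, normalized reads summed to 465 and 394 in the CCI rats and 456, 510 and 395 in the naive rats, so the sums of the groups overlapped. The largest of the 7 was at *Cnp*, with a log2 ratio of 0.66, and a *Sox10* region was among the gaining regions. A region at *Mbp* had a log2 ratio of -0.77, short of the limit for losing regions.

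Of the 22 listed genes of macrophages and other immune cells, *Cxcr4*, the receptor of the chemokine CXCL12, had losing regions. Its promoter region on chromosome 13 from 45319564 to 45320141 carried 60.1 and 43.5 normalized reads after CCI and 71.6, 121 and 80.8 in naive rats, a log2 ratio of -0.82. Without naive rat 2 this ratio was -0.56 and without CCI rat 2 it was -0.60, so the region met the rule in neither case. A second region, from 45577011 to 45577259, carried 9.35 and 11.5 against 24.2, 40 and 21.7, a log2 ratio of -1.46. Naive rat 2 was the highest at both. Of the 16 listed genes of endothelial cells, pericytes and fibroblasts, *Cdh5* (the endothelial cadherin) and *Col1a2* (a chain of type I collagen) had a losing region each, with log2 ratios of -0.89 and -0.98, while *Col1a1* had a gaining region. The *Cdh5* region did not meet the rule without CCI rat 2 (-0.79), without naive rat 3 (-0.74) or at equal depth, and the *Col1a2* region did not after centring on 1 Mb windows (-0.74). A second *Col1a1* region and a *Pecam1* region had log2 ratios of 0.77 and 0.64, short of the rule for gaining regions. Over all 5 named regions of this list, normalized reads summed to 632 and 477 in the CCI rats and 493, 529 and 503 in the naive rats, so these sums overlapped too. No gene of the 34 listed for sensory neurons had a named losing region, and *Nefh*, *Prph*, *Rbfox3* and *Tubb3* had gaining ones. Over the 9 named regions of that list, normalized reads summed to 705 and 509 in the CCI rats and 278, 363 and 304 in the naive rats, so here both CCI sums stood above every naive sum. Gene names exist only for regions that the study listed as changed, so the sums of these lists are not independent of the change. The part that a shift in the makeup of the ganglion had in these values was not tested.

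Among 27 potassium channel genes, *Kcna4*, which encodes an A-type voltage-gated channel, and *Kcnj3*, which encodes a G protein-gated inward rectifier, had losing regions. The *Kcna4* region on chromosome 3 from 98342404 to 98343032 carried 20.7 and 16.02 normalized reads after CCI, against 51.6, 54 and 38.8 in naive rats, a log2 ratio of -1.39. At *Kcnj3* the values were 58.7 and 65.9 against 153, 102 and 109, a log2 ratio of -0.96, but the surrounding 1 Mb had fallen by 0.59 on the log2 scale, the farthest of any region in these gene lists. Relative to that surrounding 1 Mb the *Kcnj3* ratio was -0.37. Centring each library on 1 Mb windows is another construction and gave -0.66. The region did not meet the rule after that centring or without naive rat 1 (-0.76). No gene of the 21 listed opioid, GABA and other inhibitory receptors had a named losing region. Among 26 genes tied to injury and regeneration, *Flrt3*, which encodes a leucine-rich membrane protein, had a losing region with a log2 ratio of -1.29. *Klf6*, a zinc finger transcription factor, had a pair of neighbouring losing regions with log2 ratios of -1.02 and -1.56, and the first did not meet the rule after centring on 1 Mb windows (-0.79). The second carried 12.7 and 18.3 normalized reads in the CCI rats, against 56.9, 38 and 42.1 in the naive rats. On the same list, *Socs3* and *Vgf* had gaining regions.

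In 59 losing regions, nearest to 57 genes, the study placed the region in the promoter class, and 58 of these overlapped H3K4me1. This overlap, too, follows from how the study made its lists. Promoter regions were longer (median 782 bp against 470 bp) and stronger (median naive mean 97.8 against 31.1) than the other 2044 losing regions. Their median log2 ratio was -0.91. Of those 2044 regions, 859 overlapped H3K4me1 and most had no gene name. Promoter class, H3K4me1 and listing by the study therefore cannot be told apart in this comparison. After the values were seen, genes of cell division and DNA replication were singled out in the promoter class. Their promoters included those of *Nuf2* (a kinetochore protein), *Smc2* (condensin), *Cenpq* (centromere), *Orc3* (origin recognition complex), *Pola1* (DNA polymerase alpha), *Nedd1* (recruits gamma-tubulin), *Diaph3* (a formin), *Mms22l* (repair of replication forks) and *Terf1* (telomeres). At the *Smc2* promoter the CCI rats carried 144 and 103 normalized reads and the naive rats 218, 223 and 235, a log2 ratio of -0.87. At the *Cenpq* promoter the values were 140 and 130 against 250, 235 and 225, a log2 ratio of -0.81 in a window of 1 Mb at -0.44. *Nuf2* had 2 neighbouring losing regions, and the smaller, with 13.4 and 16.02 against 41.8, 33 and 36.1, had a log2 ratio of -1.33. *Diaph3* had 4 losing regions and *Mms22l* 3, each with a single one in the promoter class. Without CCI rat 2 the log2 ratio was -0.65 at *Smc2*, -0.76 at *Cenpq*, -0.72 at *Pola1* and -0.69 at *Nedd1*. It was -0.65 at *Diaph3*, -0.61 at *Mms22l* and -0.72 at the larger *Nuf2* region. At *Depdc1* and *Cdca7l*, whose promoters were also singled out, it was -0.64 and -0.37. None of these met the rule. *Orc3* did not meet it without CCI rat 1 (-0.78) or without naive rat 3 (-0.76). Without naive rat 1, *Cenpq* (-0.77) and the larger *Nuf2* region (-0.77) did not meet it, nor did *Cdca7l* without naive rat 2 (-0.79). Without naive rat 3, *Mms22l* (-0.78), *Pola1* (-0.72) and the larger *Nuf2* region (-0.78) did not meet it either. After centring on 1 Mb windows, *Cenpq* (-0.34), *Pola1* (-0.61), *Mms22l* (-0.69) and *Diaph3* (-0.72) did not meet it. Neither did *Depdc1* (-0.74), *Cdca7l* (-0.75) or the larger *Nuf2* region (-0.77). At equal depth *Cdca7l* (-0.73) and *Pola1* (-0.59) did not meet it. The *Terf1* promoter and the smaller *Nuf2* region met it with each rat left out and after centring. Since these genes were picked for what they do after their values were known, their number was not compared with that of other gene groups.

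Promoter sequences were taken from RefSeq (assembly GRCr8) by gene symbol, which matched 44 of the 57 genes. They run from 250 bases before to 50 after the annotated start and were not aligned to the rn6 regions. The promoters of *Fat1*, an atypical cadherin with one of the strongest losing regions, of *Cxcr4* and of *Cenpq* are printed to show their CpG content and the motif matches, which are in capitals. The median number of CpG dinucleotides was 15 in the matched promoters and 7 in all 33469 RefSeq promoters, and the median GC content was 56% and 51.7%. In *Fat1* the capitals are the cAMP response motif TGACGTCA and the E-box CAGCTG, in *Cxcr4* the KLF/SP motif GGGCGGGG read on the other strand, and in *Cenpq* the ETS motif ACCGGAAG read on the other strand.
Fat1, GRCr8 chr16:54028560-54028859, minus strand: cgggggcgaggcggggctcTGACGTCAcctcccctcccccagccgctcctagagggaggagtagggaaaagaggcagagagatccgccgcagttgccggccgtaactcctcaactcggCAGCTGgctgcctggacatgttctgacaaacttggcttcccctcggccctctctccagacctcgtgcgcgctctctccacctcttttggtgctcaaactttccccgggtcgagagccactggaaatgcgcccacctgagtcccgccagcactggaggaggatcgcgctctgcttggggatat
Cxcr4, GRCr8 chr13:42634239-42634538, minus strand: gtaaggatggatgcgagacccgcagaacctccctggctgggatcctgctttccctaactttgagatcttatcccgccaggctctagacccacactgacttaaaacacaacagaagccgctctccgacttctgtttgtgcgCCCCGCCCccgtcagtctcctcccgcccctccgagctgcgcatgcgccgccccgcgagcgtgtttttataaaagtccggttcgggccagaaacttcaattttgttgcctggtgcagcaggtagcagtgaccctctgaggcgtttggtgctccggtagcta
Cenpq, GRCr8 chr9:27454089-27454388, plus strand: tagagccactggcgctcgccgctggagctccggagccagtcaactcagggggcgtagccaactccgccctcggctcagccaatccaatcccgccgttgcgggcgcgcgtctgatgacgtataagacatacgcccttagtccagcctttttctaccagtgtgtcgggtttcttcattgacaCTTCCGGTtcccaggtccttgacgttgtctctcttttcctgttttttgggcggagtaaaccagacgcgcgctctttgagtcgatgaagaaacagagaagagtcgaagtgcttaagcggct

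Both strands of the 44 promoters were searched for 16 short motifs, and the shares are given beside those of all 33469 promoters as a description. The NFY motif (CCAATCAG or CCAATGAG) was in 15.9% against 5.20%. Its carriers were *Aass*, *Depdc1*, *Diaph3*, the histone gene *Hist1h2bo*, *Pola1*, *RT1-A2* and *Rorb*. The cAMP response motif (TGACGTCA) was in 11.4% against 1.83%, carried by *Areg*, *Fat1*, *Mlf1*, *Nedd1* and *Zfp458*. KLF/SP (GGGCGGGG) was in 25% against 15.2%, and ETS (ACCGGAAG) in 6.82% against 2.49%. Shares within a few percentage points of those of all promoters were found for IRF (4.55% against 3.92%), AP-1 (TGANTCA, 9.09% against 7.33%), C/EBP (TTGNNNCAA or TTGNNCAA, 9.09% against 11.3%), TEAD (GGAATG, 11.4% against 14.2%) and the E-box CAGCTG (11.4% against 15.1%). SOX (ACAAAG or ACAATG) was in 20.45% against 29.1%, RUNX (TGTGGTT) in 2.27% against 5.57%, and the E-box CACGTG in 2.27% against 6.42%. No match was found in these windows for the full NF1 site, the short NF1 site (TGCCAAG, which can overlap the full site), the CTCF core or MEF2, found in 0.0418%, 5.75%, 0.959% and 1.57% of all promoters. With 44 promoters, 1 promoter is 2.27%, and the promoters of losing regions differ from all promoters in CpG and GC content, as given above, whose part in these shares was not tested.

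The lowest log2 ratios came from regions with few reads, often with naive rat 2 far above the other naive rats. The region on chromosome X from 150615881 to 150616215 had 1 and 7 reads in the CCI rats and 21, 52 and 9 in the naive rats, or 6.86, 52 and 5.91 normalized reads in the naive rats, a log2 ratio of -3.48. On chromosome 6 from 17364201 to 17364545 there were 1 and 7 reads against 32, 43 and 12, or 10.5, 43 and 7.89 normalized reads in naive rats, a log2 ratio of -3.40. In both, naive rat 2 was more than 4 times as high as either of the other naive rats, and without it the log2 ratios were -1.72 on chromosome X and -2.25 on chromosome 6, with naive means under 20, so that neither region met the rule. By contrast, on chromosome 19 from 28569417 to 28569965 the naive rats were close, at 21.2, 27 and 23.7 normalized reads, against 0.67 and 5.04 after CCI, a log2 ratio of -3.07. CCI rat 1 had 1 read there and at *Grb14*, so the size of either loss is imprecise. The *Grb14* region (-2.82) did not meet the rule without naive rat 2, without naive rat 3 or after centring on 1 Mb windows. Its log2 ratio stayed past the limit in each case, at -2.66, -2.63 and -2.34. Among the 28 regions with a log2 ratio below -2, the naive SD exceeded 50% of the naive mean in 10, against 4 of the 596 regions between -0.9 and -0.8.

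Naive rat 2 was at least 2 times as high as both other naive rats in 20 losing regions (0.951%) and in 0.638% of the other regions. The same held for naive rat 1 in 6 losing regions (0.285%) and 0.0727% of the other regions, and for naive rat 3 in 5 (0.238%) and 0.259%. At the other end, naive rats were nearly equal at a region on chromosome 5 from 98003269 to 98003738. They carried 44.8, 45 and 44.7 normalized reads there, against 25.4 and 15.1 in the CCI rats, a log2 ratio of -1.15 that became -0.69, short of the rule, after centring on 1 Mb windows. Over all losing regions the median naive SD was 17.6% of the mean, against 17.3% in the other regions.

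Losing regions were spread unevenly over chromosomes. Chromosomes 11, X and 2 had the highest shares of their regions at or above the naive minimum, with 101 of 1088 (9.28%), 80 of 944 (8.47%) and 296 of 3532 (8.38%). Chromosome 10 had 9 of 2286 (0.394%) and chromosome 12 had 3 of 1018 (0.295%), whereas gaining regions made up 7.83% and 6.48% there and 0.340% on chromosome 2. The regions that were not losing had median log2 ratios of 0.52 on chromosomes 10 and 12, and of 0.04, -0.15 and -0.05 on chromosomes 11, X and 2. Chromosomes 10 and 12, with the smallest shares of losing regions, thus had the highest medians of all 21 chromosomes. After every library was centred on the median of its 1 Mb windows, the rule chose 50 regions on chromosome 10 and 26 on chromosome 12. It chose 210 on chromosome 2, 77 on chromosome 11 and 45 on chromosome X. Leaving out CCI rat 1 gave 26, 10, 532, 155 and 139 regions on these chromosomes, in that order. Leaving out CCI rat 2 gave 24, 14, 368, 96 and 71. H3K4me1 overlap among losing regions ranged from 8 of 39 on chromosome 19 (20.51%) to 46 of 80 on chromosome X (57.5%), leaving out chromosomes 10 and 12 for their few regions.

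**Figure D3:**
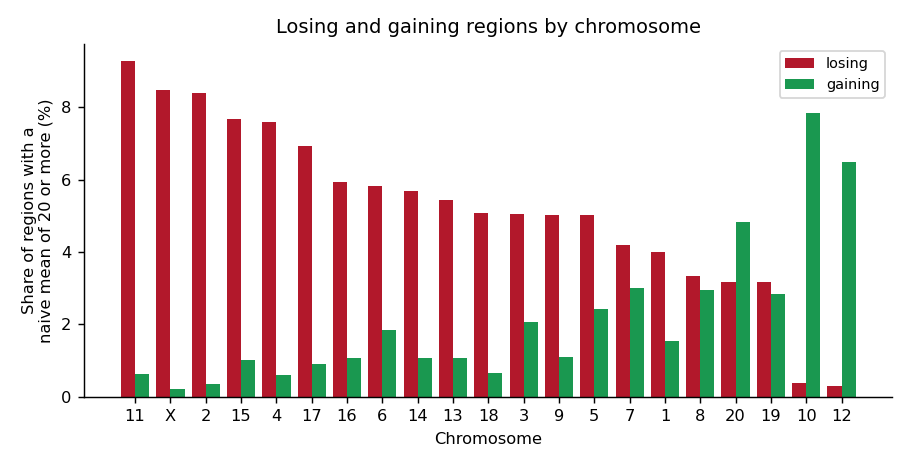
Share of the regions with a naive mean of 20 or more (y axis, %) that lost (red) or gained (green) accessibility, by chromosome (x axis) in the order of the red bars. Chromosomes 10 and 12, at the right end, have under 1% of losing regions and over 6% of gaining regions.

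The 1 Mb around each losing region was described by the median log2 ratio of the accessible regions within 500 kb that were not themselves losing, where at least 20 were present. This gave a value for 2091 losing regions from a median of 68 regions each. The median of these windows was -0.11 (quartiles -0.23 and 0.04) around losing regions, 0.21 around the other regions and 0.54 around gaining regions. Windows stood below 0 around 1445 losing regions (69.1%), around 24.6% of the other regions and around 1.90% of gaining regions. All accessible regions together had a median log2 ratio of 0.12. Losing regions were lower than their window in all 2091 cases, as the rule makes nearly certain, by a median of 0.95, and 1496 of them (71.5%) were still at -0.8 or less after the window was subtracted. Without naive rat 1 the windows around losing regions had a median of 0.02 and those around the other regions 0.25, so the sign turned while the gap remained. In the 10 settings in which both were computed, which were the deposited values, 2 other window sizes, median-of-ratios rescaling, windows of regions at or above the naive minimum and each rat left out, the windows of losing regions lay 0.21 to 0.39 below those of the other regions.

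**Figure D4:**
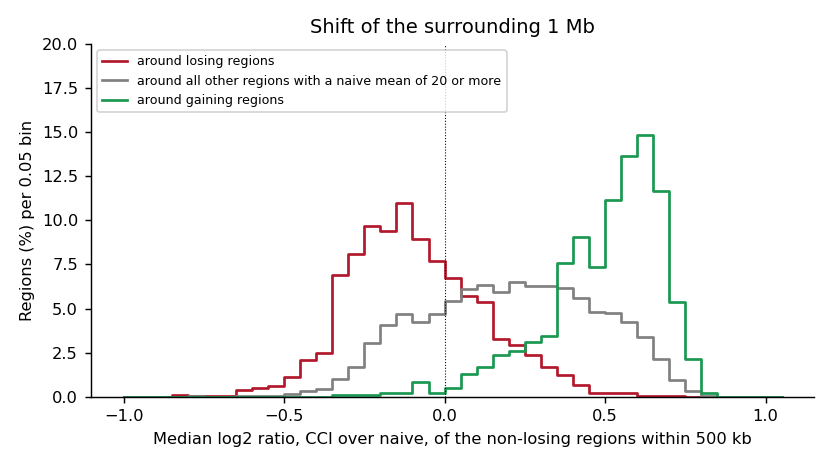
Distribution of the median log2 ratio, CCI over naive, of the regions that were not losing within 500 kb (x axis, dotted line at 0) around losing regions (red), all other regions with a naive mean of 20 or more (grey) and gaining regions (green), as the percentage of regions per bin of 0.05 (y axis). The medians are -0.11, 0.21 and 0.54.

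Individual windows reached farther than the median. Around 671 losing regions (32.1%) the window was below -0.2, and around 204 (9.76%) it was above 0.2. The lowest windows, at -0.82 and -0.76, surrounded losing regions of chromosome 3 near 144 Mb, at and around *Andpro*, where a region from 143763960 to 143764529 had a log2 ratio of -1.26, or -0.44 relative to its window. The highest windows surrounded losing regions whose neighbourhood had a positive median log2 ratio. On chromosome 12 from 48832698 to 48833140 the log2 ratio was -1.01 in a window at 0.74, and without CCI rat 1 it was -0.797, short of the rule. At *Vrk1*, which encodes a protein kinase, the CCI rats carried 34.0 and 39.8 normalized reads and the naive rats 70.9, 57 and 72.3, a log2 ratio of -0.85 in a window at 0.66. This region did not meet the rule without CCI rat 1 (-0.74), without naive rat 3 (-0.79) or at equal depth. At the promoter of *RT1-A2*, a class I histocompatibility gene, the values were 4.67 and 10.1 against 28.1, 32 and 32.9. The log2 ratio was -2.07 in a window at 0.60. This gene has near-identical copies, so reads there may be dropped for low mapping quality or placed at another copy.

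Joined at a distance of 50 kb, 557 losing regions (26.5%) fell into 241 clusters, and 1546 stood alone. Most clusters were small: 189 held 2 regions, 39 held 3, and 13 held 4 to 7. Among pairs made of a losing region and a region at or above the naive minimum within 50 kb of it, the second was losing in 14.6% of 5417 pairs. Pairs made in the same way from the other regions had a losing partner in 2.79% of 165883, and a region can enter several pairs. Gaining regions joined in the same way fell into clusters in 33.9% of cases.

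The first of 2 clusters with 7 losing regions spans 49.4 kb of chromosome 16 from 64897639 to 64947022, and the closest region with a gene name lies 144 kb away, at *Dusp26*. Its strongest member, from 64930005 to 64931043, carried 12.02 and 16.02 normalized reads after CCI and 39.5, 168 and 19.7 in naive rats. Naive rat 2 was the highest naive rat at all 7 members, with a median of 67 normalized reads against 21.9 and 16.4 in naive rats 1 and 3 and 10.01 and 14.7 in the CCI rats. The 11 regions of the span that were not losing had medians of 30 in naive rat 2, 12.7 and 8.54 in naive rats 1 and 3, and 5.34 and 8.24 in the CCI rats, so naive rat 2 stood apart there too. Without naive rat 2, 2 of the 7 members still met the rule.

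The second, on chromosome 17, spans 27.7 kb from 48428957 to 48456696, with the nearest named region 354 kb away at *Vps41*. Here the naive rats were close, with medians over the 7 members of 35.6, 31 and 32.2 normalized reads against 13.4 and 20.1 in the CCI rats. The lowest ratio was at the region from 48446050 to 48446239, which carried 10.7 and 10.99 normalized reads after CCI and 30.4, 25 and 23.7 in naive rats, a log2 ratio of -1.28. The 8 regions of the span that were not losing also had a negative median log2 ratio, -0.53, and the surrounding 1 Mb stood at -0.25. After removal of the 1 Mb window medians, 1 of the 7 still met the rule, and without CCI rat 1, 4 did. Of these 7, 1 overlapped H3K4me1, against 3 of 7 in the cluster on chromosome 16.

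**Figure D5:**
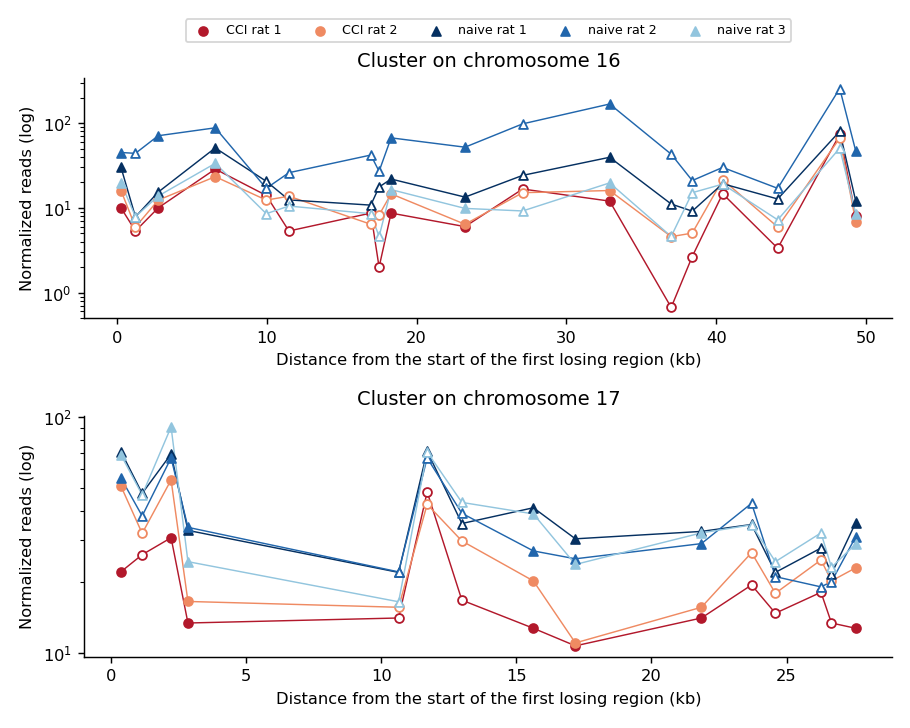
Normalized reads (y axis, log scale) in each rat for every accessible region in the spans of both clusters of 7 losing regions, by distance from the start of the first losing region in kb (x axis). Circles are CCI rats, triangles are naive rats, and filled marks are losing regions. On chromosome 16 (top) naive rat 2 runs above the other rats over most of the span, and on chromosome 17 (bottom) the 3 naive rats run together above both CCI rats at the filled marks.

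Of 4 clusters with 5 losing regions, the 2 with the lowest median ratios lie on chromosome 4. The first spans 72.0 kb from 28324459 to 28396464, and 3 of its regions are nearest to *Hepacam2*, an immunoglobulin-like adhesion protein gene. The one from 28360651 to 28361469 carried 7.34 and 12.4 normalized reads after CCI and 37.6, 36 and 24.97 in naive rats, a log2 ratio of -1.74. The second spans 86.1 kb from 38637093 to 38723150, between *Phf14* and *Thsd7a*, and its regions had log2 ratios of -2.38 to -0.82. The region at -2.38 had 1 read in CCI rat 1, and its ratio was -1.49 without that rat and -5.26 without CCI rat 2. The region at -0.82 did not meet the rule without CCI rat 1 (-0.63), without naive rat 2 (-0.74), after centring on 1 Mb windows (-0.65) or at equal depth. The 9 regions of this span that were not losing had a median log2 ratio of 0.50, with medians of 12.7 and 11.5 normalized reads in the CCI rats and 7.84, 7 and 9.20 in the naive rats. All but 1 of these 9 had a naive mean under 20. In the span at *Hepacam2* the corresponding median, over 4 regions, was -0.53. Of the other 2 clusters of 5, the one on chromosome 1 from 195829749 to 195900232 had a median log2 ratio of -0.96, and 0 of its 5 regions overlapped H3K4me1.

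Chromosome 17 held the other cluster of 5, near histone genes, and a cluster near *Trim27*. The cluster of 5, from 43835370 to 43945533, was nearest to *Abt1*, *Btn1a1* and *Hist1h2ail1*, and all 5 overlapped H3K4me1, as nearly all regions with a gene name do. A cluster of 4 was nearest to *Trim27*, a ubiquitin ligase gene singled out after its values were seen, and its last region carried 25.4 and 41.2 normalized reads after CCI, against 114, 94 and 172 in naive rats, a log2 ratio of -1.93. The 1 Mb around these clusters stood at -0.32 and -0.31. Histone genes have near-identical copies, so reads there may be dropped for low mapping quality or placed at another copy.

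On the log2(normalized reads + 1) scale, which understates changes of weak regions, the moderated test of limma was run, with a trend of variance on mean, over all 186719 regions. It called 6703 regions (3.59%) at an unadjusted two-sided p below 0.01, of which 2735 (1.46% of all regions) were less accessible after CCI. Among the losing regions, 1569 (74.6%) were called, and 404 (19.2%) had a Benjamini-Hochberg adjusted p below 0.05, which 443 regions (0.237%) reached in this direction overall. The rule and the test share the same 5 rats, so these counts describe the rule. With 2 rats in one group and 3 in the other, the smallest p of an exact permutation test of 1 region is 0.1.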

How the data were processed

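ATAC-seq reads of 5 rats and H3K4me1 positions were used. The deposited signal was made by the authors, who trimmed paired reads, aligned them to rn6 with Bowtie2, dropped reads of low mapping quality and duplicates, shifted reads for the Tn5 footprint, called regions per library with MACS2, merged them and divided the reads of each region by a size factor (lowest, 1, in naive rat 2, and highest, 3.06, in naive rat 1). The other deposited table, per the file headers, gives positions of H3K4me1 regions, which the authors called against input and merged over all samples. The submitters' processing notes name CASAVA 1.8.2, Bowtie2, MACS2 and limma. Per-sample columns mapped to no sample numbered 0.

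Regions were read with Python 3.11.15, numpy 2.4.6 and pandas 2.3.3. Accessibility was compared in R 4.3.3 by limma 3.58.1, after adding a pseudocount of 1 and taking log2, with adjustment by the Benjamini-Hochberg method over all regions. The recovered reads were also tested with edgeR 4.0.16 (quasi-likelihood) and DESeq2 1.42.0. The fits were tested on simulated data with known changes. Figures were drawn with matplotlib 3.10.9.

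The losing regions, gene lists and tests were chosen with earlier results of these data known. Regions named are the 10 with the lowest log2 ratio (with over 3 reads in a CCI library), the 10 with the highest naive mean, all members of the 4 clusters with the most regions (of 4 clusters tied at 5, the 2 with the lowest median ratio), the 5 longest, those nearest to the limits, those nearest to listed genes, those in cloned constructs, those in the 3 lowest and 3 highest windows and the 5 with the least and the most spread among naive rats. Other names were chosen after their values were seen: *Smc2*, *Cenpq*, *Nuf2*, *Trim27* and the other promoter and cluster genes given beside them. Each ATAC-seq library is a separate rat. Alternatives were other ratio and naive limits, rescaling by median of ratios, centring on 1 Mb windows, equal depth, other overlaps, distances and window sizes, pseudocounts, filters and normalizations, and leaving out each rat. RNA-seq, luciferase and protein array data were not used here. A region nearest to an item that is withheld is not reported here.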

Additional observations from a re-analysis of the deposited data

How the results depend on the processing

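A log2 ratio limit of -1.0 left 1060 losing regions, of which 38.5% overlapped H3K4me1 and 21.3% lay in clusters, with a median length of 457 bp. At -0.6 there were 3813, with 50.4%, 35.1% and 514 bp, at a naive minimum of 10 there were 6238, with 26.4%, 36.4% and 304 bp, and at 50 there were 521, with 61.8%, 8.64% and 774 bp. Median-of-ratios rescaling gave 3236, with 46.8% on H3K4me1 and 33.004% in clusters. Removing the median of each 1 Mb window gave 49.7%, 17.7% and 458 bp, and 1348 of the 2103 regions were shared. Overlap of at least 50% of the region gave 37.4% with H3K4me1, and H3K4me1 regions of at least 1 kb gave 23.3%. Clusters joined at 25 kb held 17.97% and at 100 kb 37.2%. The H3K4me1 share of losing regions was below that of the other regions in all 12 settings of limits, scaling, depth and left-out rats. With each rat left out, there were 2447 to 3749 losing regions (the most without CCI rat 1), with 38.6% to 56.98% on H3K4me1, 446 to 512 bp and 26.3% to 33.4% in clusters. The median shift of the surrounding 1 Mb was -0.16 to 0.0200, above 0 without naive rat 1, and it was -0.0692 with 5 Mb windows, -0.17 from regions with a naive mean of at least 20 and -0.22 with median-of-ratios rescaling. The cause of these differences was not tested.

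Limma called 3352 to 7668 regions with a rat left out and 975 to 1307 of the losing regions, 3142 and 218 without a trend, 3066 and 722 when only regions on H3K4me1 were tested, and 643 and 404 at an adjusted p below 0.05. Quantile normalization gave 10298 calls. DESeq2 on the recovered reads gave 2613 calls (781 losing regions) with the deposited size factors and 4242 with its own, and edgeR gave 7256. CCI and naive rats of the same number are known here to share the number only, with correlations of their deviations of -0.062 and -0.056, and with a replicate block 3944 regions and 953 losing regions were called. Less accessible regions were 40.8% of calls as deposited, 66.3% with rescaling by median of ratios, 57.7% after quantile normalization, 60.2% with TMM factors in edgeR, 73.1% with the own size factors of DESeq2, 75.1% after removing window medians and 83.8% without CCI rat 1, but 31.4% without naive rat 2, 34.8% with a pseudocount of 10, 35.1% with edgeR and the deposited factors, 36.2% without naive rat 1 and 36.4% without CCI rat 2. The median log2 fold change of all regions was 0.13 as deposited, and rescaling by median of ratios took it to 0.03. Over 74 named regions, 518 recomputed log2 ratios ran from -5.26 to -0.36. Of these values, 74 moved by more than the standard error of the difference between group means of log2 values. Depth limits single regions in CCI rat 1 and naive rat 2 most, and counting error is the only error that reads cover.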
